A study of Mus musculus with 12 samples.

Results

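The complement genes described here are 9 genes of the complement system, namely the C1q chains C1qa, C1qb and C1qc, the components C3 and C4b, factor B (Cfb), and the anaphylatoxin receptors C3ar1, C5ar1 and C5ar2. They were taken by name and not by their values, and they are 9 of the 25128 genes and unnamed targets measured on the arrays. Each of the 9 was measured by 3 probes to a single transcript. The study profiled mRNA of 3 mouse cell lines under basal conditions, with 4 plates of cells per line, each described as a biological replicate and hybridised to its own single-colour array. AtT20 is a line from a pituitary corticotroph tumour, BV2 is a microglial line immortalised with a retrovirus, and N18 is a neuroblastoma line. No line received any treatment, all were grown in the same serum-containing medium, the labels call the cell type of all of them normal, and no age or sex is given. The study adds that BV2 was kept under conditions meant to favour a resting, non-activated state. Each group is a single established cell line, so the spread between plates is that within 1 line and not between animals, and fewer cells of a type and less RNA per cell cannot be told apart in such bulk samples.

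Complement is a cascade of plasma and tissue proteins that tags particles for uptake. C1q, built of its A, B and C chains, binds targets and starts the classical pathway, which splits C4 and C2. Factor B, factor D and properdin run the alternative pathway, and all pathways meet at C3, the most abundant component. The split products C3a and C5a, called anaphylatoxins, act through the G protein coupled receptors C3ar1 and C5ar1, whereas C5ar2 binds C5a but couples poorly to G proteins. In the brain microglia are the main source of C1q and carry the anaphylatoxin receptors and the integrin receptors for cleaved C3.

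Levels are given on a log2 scale relative to the mean of 10 seminal vesicle proteins on the same array, which the study used as genes that these cells should not express. A gene was called detected in a line when its mean level over the 4 plates was above the mean over those plates of 2 SD of these controls, which was 0.37 ± 0.11 in AtT20, 0.56 ± 0.15 in BV2 and 0.74 ± 0.10 in N18 (SD, n = 4 plates). Since probes bind with different strength, no level of 1 gene is compared with that of another. Of all features, 35.0% were detected in AtT20, 53.3% in BV2 and 55.4% in N18. The microglial label of BV2 was borne out by 9 of 11 microglial markers, with Csf1r at 4.70 ± 0.39 (SD, n = 4), while Aif1 and Cx3cr1 lay below the threshold. In N18, 11 of 12 neuroblast markers were detected, against 7 in AtT20 and 6 in BV2. In the plates labelled AtT20 only 1 of 7 corticotroph markers was detected, against 4 in N18 and 2 in BV2, and Pomc, the gene of the hormone these cells are known for, stood at 0.29 ± 0.26, below its threshold, so every direction given for AtT20 rests on the label. Microglial markers were detected in 1 of 11 cases in AtT20 and 2 of 11 in N18, and markers of liver, the main source of plasma complement, in 1 of 5 in AtT20, 2 in BV2 and 0 in N18. The AtT20 arrays also stood apart in their spread of values, with interquartile ranges of 0.378 to 0.782 on the log2 scale against 1.28 to 1.73 in BV2 and 1.91 to 2.21 in N18, and correlations between plates were 0.896 to 0.959 in AtT20, 0.976 to 0.993 in BV2 and 0.982 to 0.993 in N18. None of the 324 probe values of the 9 genes was at the highest value the arrays reached (16).

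The promoter windows of the 3 genes on which the results turn are shown first, from 250 bases before to 50 bases after the start site, on the gene's own strand, as RefSeq gives them on GRCm38.p6. All 3 genes lie on the minus strand, C3 at chr17:57228087-57228386, C3ar1 at chr6:122856108-122856407 and C5ar1 at chr7:16259289-16259588. Capitals mark a match to 1 of the 4 motifs searched on both strands.
C3: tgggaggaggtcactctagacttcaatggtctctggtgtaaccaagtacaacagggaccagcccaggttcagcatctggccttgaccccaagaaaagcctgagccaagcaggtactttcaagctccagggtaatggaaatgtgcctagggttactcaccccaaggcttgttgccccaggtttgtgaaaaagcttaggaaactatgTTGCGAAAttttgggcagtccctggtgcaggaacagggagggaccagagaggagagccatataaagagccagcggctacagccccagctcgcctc
C3ar1: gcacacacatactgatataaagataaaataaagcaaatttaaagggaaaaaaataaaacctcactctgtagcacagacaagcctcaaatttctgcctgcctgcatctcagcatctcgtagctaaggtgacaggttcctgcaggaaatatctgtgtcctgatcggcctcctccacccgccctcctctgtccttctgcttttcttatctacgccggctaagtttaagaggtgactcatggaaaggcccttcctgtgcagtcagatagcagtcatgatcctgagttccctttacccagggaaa
C5ar1: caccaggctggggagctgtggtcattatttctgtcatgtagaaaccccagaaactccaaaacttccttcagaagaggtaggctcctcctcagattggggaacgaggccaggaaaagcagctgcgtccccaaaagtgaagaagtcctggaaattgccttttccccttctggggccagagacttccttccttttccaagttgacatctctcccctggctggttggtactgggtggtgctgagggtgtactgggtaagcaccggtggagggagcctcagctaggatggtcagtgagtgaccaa

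The motifs were GAGGAA, a core bound by PU.1 and other ETS factors, TTGCNNAA for C/EBP factors, TTCCNGGAA for STAT factors and a longer motif for NF-kappaB. They were found in 28.3%, 10.8%, 1.15% and 0.411% of the 32851 promoter windows of all genes, respectively. The C3 window held TTGCNNAA once, as TTGCGAAA at position -45 from the start site, and none of the other motifs. The windows of C3ar1 and C5ar1 held none of the 4 motifs. Of the 9 genes 6 had a window in the table. GAGGAA was found in the windows of C1qb and C1qc and in 1 C5ar2 window, and the other C5ar2 window held TTGCNNAA at positions -210 and -166. A match of letters is a description and does not show a bound site. In the genome the 3 C1q genes follow each other on chromosome 4, C5ar1 and C5ar2 are neighbours on chromosome 7, and C4b and Cfb lie on chromosome 17 with 5 protein-coding genes between them.

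C3, C3ar1 and C5ar1 were clearly above background in BV2, and Cfb and C5ar2 lay just over the threshold there. In all, 5 of the 9 genes were detected in BV2, 1 in AtT20 (C3) and 1 in N18 (Cfb), beside the 53.3%, 35.0% and 55.4% of all features detected in these lines. The other 4 genes, C1qa, C1qb, C1qc and C4b, were detected in none of the 3 lines.

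**Figure D1:**
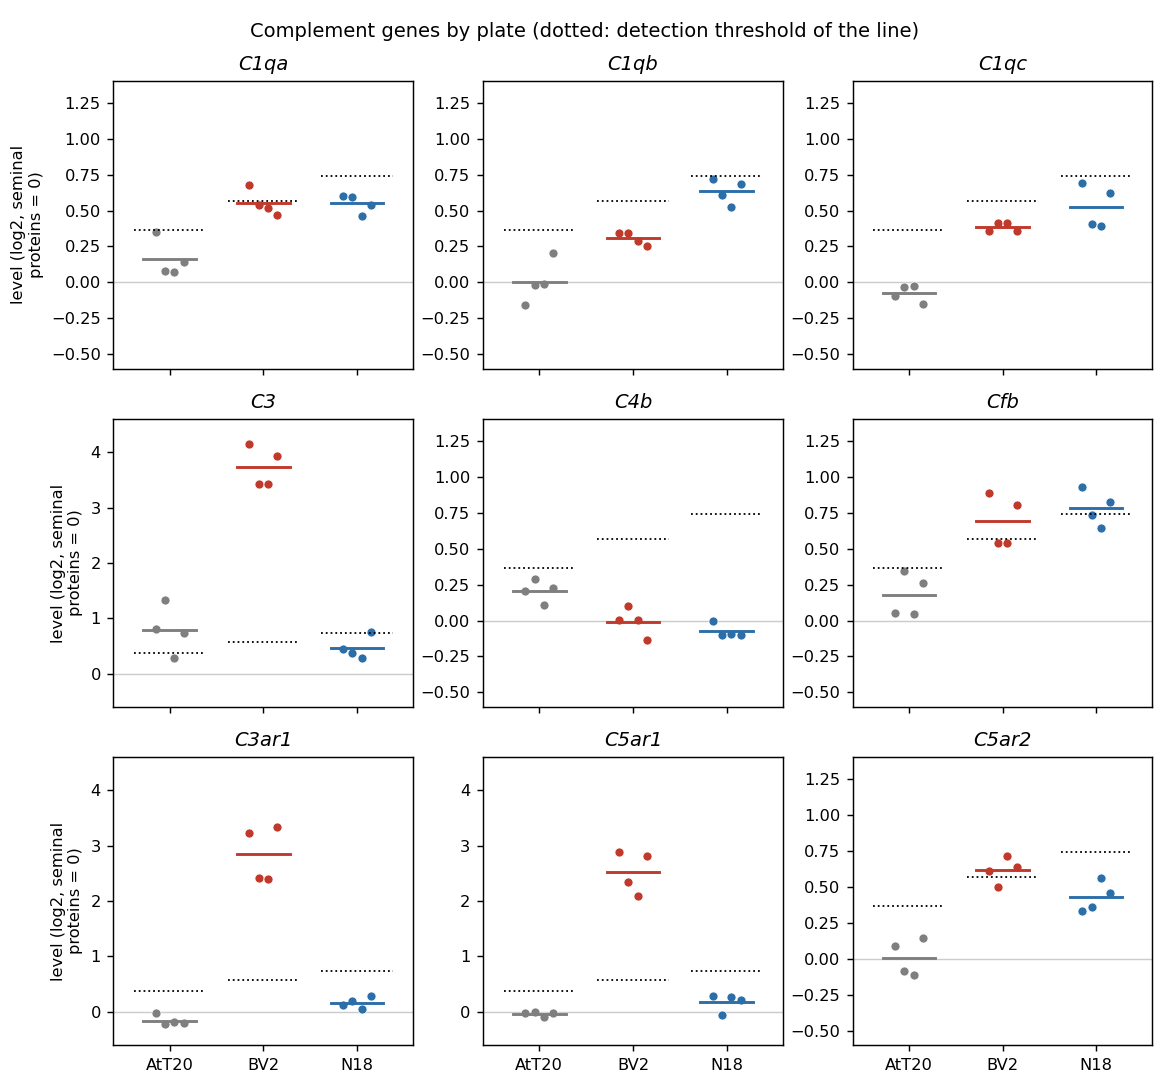
Level of each of the 9 complement genes in each plate (points), with the mean of the 4 plates (solid bar) and the threshold of each line (dotted), in log2 units relative to the 10 seminal vesicle proteins, where C3, C3ar1 and C5ar1 have a longer vertical scale than the others. C3, C3ar1 and C5ar1 stand above all AtT20 and N18 plates in the 4 BV2 plates, while C1qa, C1qb, C1qc and C4b stay below the threshold of every line in the mean.

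C3 is the component that every pathway cleaves. Its level in the 4 BV2 plates was 4.15, 3.43, 3.42 and 3.94 (3.74 ± 0.37, SD). In AtT20 it was 0.81, 1.33, 0.28 and 0.74 (0.79 ± 0.43), and in N18 it was 0.45, 0.37, 0.29 and 0.75 (0.47 ± 0.20). All BV2 plates were above all plates of the other lines, whereas the AtT20 and N18 plates overlapped. C3 was called detected in AtT20 and not in N18. The AtT20 call came from 1 of the 3 probes, the first by the position in its identifier, at 1.57 ± 0.80, while the others were at 0.08 ± 0.15 and -0.02 ± 0.14, and the call was lost when the median of the probes was taken (0.13). The same first probe was above the threshold in N18 too, at 0.95 ± 0.37, where the others were at -0.58 ± 0.12 and 0.60 ± 0.13. In BV2 the same 3 probes read 4.50 ± 0.35, 3.53 ± 0.43 and 2.55 ± 0.36, so the high level of C3 in BV2 did not depend on 1 probe.

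C3ar1 codes for the receptor of C3a. In BV2 its level was 3.23, 2.41, 2.40 and 3.34 (2.85 ± 0.51), with plates 1 and 4 above plates 2 and 3. The AtT20 plates read -0.02, -0.22, -0.19 and -0.21 (-0.16 ± 0.09) and the N18 plates 0.13, 0.19, 0.04 and 0.28 (0.16 ± 0.10). The lines other than BV2 thus stayed below their thresholds in each plate, and no plate of theirs came near the lowest BV2 plate. All 3 probes were above the threshold in BV2, at 2.20 ± 0.50, 3.26 ± 0.53 and 2.88 ± 0.50, and none was in AtT20 or N18.

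C5ar1 codes for the main signalling receptor of C5a. Its BV2 plates read 2.88, 2.34, 2.09 and 2.81 (2.53 ± 0.38). The AtT20 plates read -0.03, -0.01, -0.09 and -0.03 (-0.04 ± 0.03) and the N18 plates 0.28, -0.05, 0.26 and 0.22 (0.18 ± 0.16). As for C3ar1, only the BV2 plates were above a threshold. The level of C5ar1 came from 2 of its 3 probes, at 3.32 ± 0.37 and 2.67 ± 0.45 in BV2, while the third probe was flat in BV2 (-0.10 ± 0.20), AtT20 (0.03 ± 0.21) and N18 (-0.25 ± 0.10).

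The BV2 plates 1 and 4 were the higher ones for C3, C3ar1 and C5ar1 alike on this scale. After quantile normalisation, which gives all arrays the same distribution of values, the C3 signal of the 4 BV2 plates was 13.70, 13.62, 13.55 and 13.52, so that plate 4 was no longer among the higher for C3. For C3ar1 it was 12.70, 12.53, 12.37 and 12.89, with plates 1 and 4 still the higher, and for C5ar1 12.36, 12.47, 12.09 and 12.39, with plates 2 and 4 the higher. The interquartile ranges of the BV2 arrays, which moved with these plates, were 1.73, 1.28, 1.55 and 1.65, and their part in the levels was not tested.

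C5ar2, the neighbour of C5ar1 in the genome, is the second receptor of C5a. Its plates read 0.61, 0.50, 0.72 and 0.63 in BV2 (0.61 ± 0.09), 0.33, 0.36, 0.56 and 0.45 in N18 (0.43 ± 0.10), and 0.08, -0.08, -0.12 and 0.14 in AtT20 (0.01 ± 0.13). BV2 was called detected, with 3 of 4 plates above their own threshold, but its plates overlapped those of N18. In BV2, 2 of the 3 probes were above the threshold, at 0.94 ± 0.12 and 0.74 ± 0.14, and the third was at 0.00 ± 0.04. The first probe was above the threshold in N18 too, at 0.77 ± 0.10, and none was in AtT20.

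Factor B carries the protease of the alternative pathway. Cfb read 0.89, 0.54, 0.54 and 0.80 in BV2 (0.69 ± 0.18), 0.93, 0.73, 0.64 and 0.82 in N18 (0.78 ± 0.12), and 0.05, 0.34, 0.05 and 0.26 in AtT20 (0.18 ± 0.15). The BV2 and N18 plates overlapped, and 3 of the 4 plates of each were above their own threshold. Its probes did not move alike, since the first and the second were above the threshold in BV2 and N18 while the third lay at 0.11 ± 0.23 and -0.26 ± 0.12. In AtT20 only the first was above the threshold, at 0.52 ± 0.32.

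Of the C1q chains, C1qa came closest to a call, at 0.68, 0.54, 0.52 and 0.47 in BV2 (0.55 ± 0.09), just under the threshold of 0.56. It passed when the median of the probes was taken (0.69), when the highest control protein was left out (0.60) and without BV2 plate 3 (0.561) or plate 4 (0.578), which also moved the threshold. Leaving out the highest control protein also brought C1qa (0.622) and C1qb (0.707) over the N18 threshold, then 0.616. It stood at 0.55 ± 0.06 in N18 and 0.16 ± 0.13 in AtT20. C1qb was at 0.31 ± 0.05 in BV2 and 0.72, 0.61, 0.52 and 0.68 (0.63 ± 0.09) in N18, and C1qc at 0.38 ± 0.03 and 0.53 ± 0.15. In AtT20, C1qb was at 0.01 ± 0.15 and C1qc at -0.07 ± 0.06. Single probes of each chain passed the threshold in both BV2 and N18, as the third C1qb probe did with 0.93 ± 0.09 in BV2 and 1.47 ± 0.10 in N18. By the rule used here none of the 3 chains was thus detected in BV2, where the microglial markers were, and a level below the threshold bounds the signal on these arrays without showing that no mRNA was made.

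C4b, the classical component that C1s cleaves, stood at -0.01 ± 0.10 in BV2, -0.07 ± 0.05 in N18 and 0.21 ± 0.07 in AtT20. The third probe of C4b reached 0.45 ± 0.24 in AtT20, above the threshold there, and 0.42 ± 0.18 in BV2. C4a is a near-identical copy of C4b, and the probes of either gene may hold signal of the other, so both are uncertain. C4a itself was below the threshold in all lines.

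**Figure D2:**
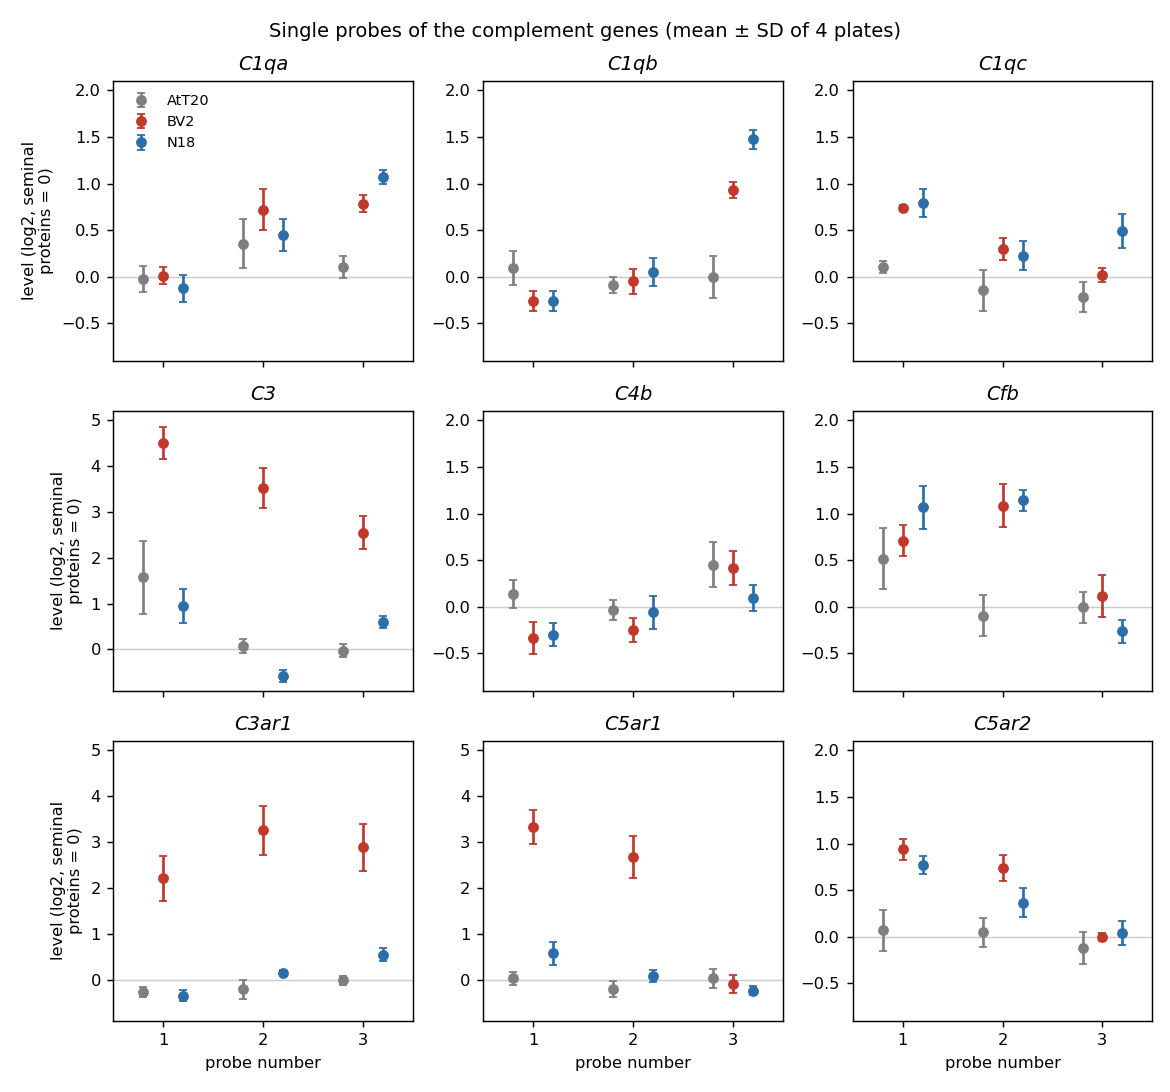
Mean level of each of the 3 probes of the 9 genes in each line (error bars, SD of 4 plates), in log2 units relative to the 10 seminal vesicle proteins, with probes numbered by the position in their identifiers and a longer vertical scale for C3, C3ar1 and C5ar1. All probes of C3 and C3ar1 are high in BV2, the third C5ar1 probe lies at -0.10 there, and the AtT20 signal of C3 comes from the first probe.

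Lines were compared with limma on quantile-normalised log2 values, with Benjamini-Hochberg adjustment over all 25128 features, and a gene was compared only where it was detected in at least 1 of the 2 lines. The SE stands beside each difference. Between BV2 and N18, 40.9% of all features were called, 21.9% higher in BV2 and 19.0% higher in N18. Of features detected in at least 1 of these lines the shares were 28.5% and 27.9%. Of the 5 complement genes compared, 4 were called higher in BV2, none was called higher in N18 and Cfb was not called. The 4 genes called were detected in BV2 and not in N18. The rule of comparison thus favoured calls higher in BV2, and the count is a description only.

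C3 was higher in BV2 than in N18 by 3.36 ± 0.12 on the log2 scale (adjusted p = 1.05e-12, limma), at least 7.9-fold against the N18 threshold. C3ar1 was higher by 2.56 ± 0.12 (adjusted p = 5.9e-11, limma), at least 4.3-fold, and C5ar1 by 2.25 ± 0.11 (adjusted p = 4.4e-11, limma), at least 3.4-fold. These bounds are the smallest over quantile normalisation, no normalisation and levels relative to the seminal vesicle proteins. Each of the 3 genes was higher in 4 of 4 BV2 plates than in any N18 plate. On single probes, tested in a fit over all 72000 probes in which 27.7% were called in either direction, the 3 probes of C3 differed by 3.80, 3.79 and 1.95 and those of C3ar1 by 2.28, 2.96 and 2.32, all called. The first C5ar1 probes differed by 2.76 and 2.42 and were called, while the third differed by 0.15 ± 0.18 (adjusted p = 0.609, limma).

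C5ar2 passed the threshold narrowly, with 0.33 ± 0.12 (adjusted p = 0.0423, limma). The call was lost without normalisation (0.22, adjusted p = 0.406) and on levels relative to the seminal vesicle proteins (0.19, adjusted p = 0.0913), and also when any 1 of BV2 plates 2, 3 and 4 or N18 plates 1, 2 and 4 was left out, with adjusted p of 0.067 to 0.118. Of the C5ar2 probes only the second was called, at 0.47 (adjusted p = 0.0456, limma). Cfb differed by 0.18 ± 0.11 (95% interval -0.05 to 0.41, adjusted p = 0.197, limma), with its sign turned under those other scalings (-0.06 and -0.09).

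**Figure D3:**
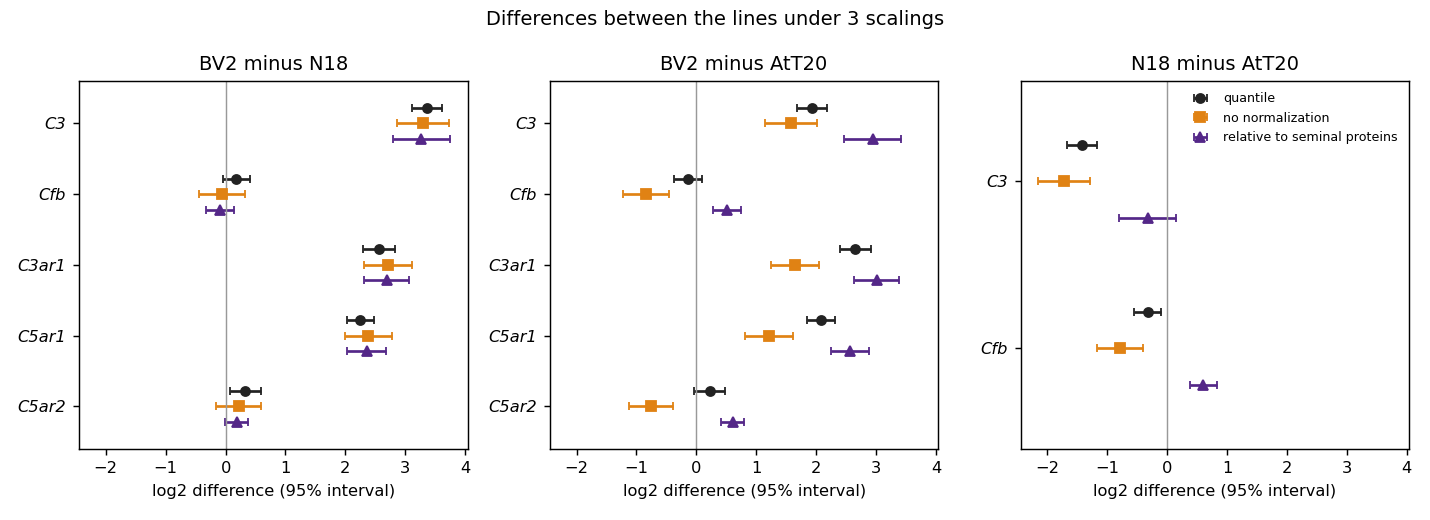
Log2 differences between lines (points, with 95% intervals from limma) for the complement genes under quantile normalisation, no normalisation and levels relative to the seminal vesicle proteins. C3, C3ar1 and C5ar1 stay above 0 in BV2 against both other lines under each scaling, while the Cfb and C5ar2 differences between BV2 and AtT20 change sign with the scaling.

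Comparisons with AtT20 depended on the scaling. The AtT20 arrays had the higher median signals as deposited, 10.9 to 11.5 on the log2 scale against 9.90 to 10.3 in BV2 and 10.1 to 10.5 in N18. The median difference of all features between BV2 and AtT20 was -0.23 after quantile normalisation, -1.08 without normalisation and 0.28 relative to the seminal vesicle proteins, and between N18 and AtT20 it was -0.25, -0.85 and 0.54. Of all features, 73.6% were called between BV2 and AtT20, 26.6% higher in BV2 and 47.0% higher in AtT20 (39.9% and 41.3% of those detected in at least 1 of the lines), so that 36.2% of the calls were higher in BV2. This share was 13.5% without normalisation and 74.2% relative to the seminal vesicle proteins. For N18 against AtT20, 76.4% were called, 27.8% higher in N18 and 48.6% higher in AtT20 (41.4% and 40.4% of those detected), and 36.4% of calls were higher in N18, with 24.0% and 78.8% under those other scalings. For BV2 against N18 the share higher in BV2 was 53.5%, against 19.8% and 25.3%, with median differences of 0.06, -0.15 and -0.18.

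Of the 5 complement genes compared, 3 were called higher in BV2 than in AtT20 and none was called higher in AtT20. The shares of all features detected in at least 1 of these lines were 39.9% and 41.3%. All 5 genes compared were detected in BV2 and only C3 also in AtT20, so the rule of comparison favoured calls higher in BV2. C4b was below the threshold in both lines and so was not compared. It differed by -0.83 (adjusted p = 1.59e-07, limma), by -1.58 without normalisation and by -0.22 relative to the seminal vesicle proteins, lower in BV2 each time. C3 was higher in BV2 by 1.93 ± 0.12 (adjusted p = 4.28e-10, limma), C3ar1 by 2.65 ± 0.12 (adjusted p = 1.77e-11) and C5ar1 by 2.08 ± 0.11 (adjusted p = 5.19e-11), and each of these was above the median shift of all features under all scalings. Against the AtT20 threshold the bounds were at least 2.1-fold for C3ar1 and at least 1.7-fold for C5ar1. All 3 probes of C3 differed, by 1.69, 2.76 and 2.05, in a fit in which 62.5% of all probes were called. C5ar2 (0.23 ± 0.12, adjusted p = 0.104) and Cfb (-0.14 ± 0.11, adjusted p = 0.242) were not called. Without normalisation C5ar2 was lower in BV2 (-0.75, adjusted p = 1e-04) and relative to the seminal vesicle proteins it was higher (0.61, adjusted p = 6.7e-06), and Cfb turned in the same way, from -0.84 (adjusted p = 2.01e-05) to 0.52 (adjusted p = 0.000377). The Cfb probes also went apart after quantile normalisation, at -0.75 (adjusted p = 0.0017, limma), 0.98 (adjusted p = 0.000452) and -0.23 (adjusted p = 0.37). No direction is therefore given for C5ar2 or Cfb against AtT20.

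Between N18 and AtT20 only C3 and Cfb could be compared, and both were called higher in AtT20 after quantile normalisation. In that direction 40.4% of the features detected in at least 1 of these lines were called, and 48.6% of all features. C3 differed by -1.42 ± 0.12 (adjusted p = 1.53e-08, limma), but by only -0.32 relative to the seminal vesicle proteins (adjusted p = 0.199) and -0.30 with the median of the probes (adjusted p = 0.156). The first probes of C3 differed by -2.11 and -1.04 and the third by 0.11, where 65.8% of all probes were called. Cfb differed by -0.32 ± 0.11 (adjusted p = 0.0122, limma) and turned to 0.60 relative to the seminal vesicle proteins (adjusted p = 5.2e-05). Its 3 probes differed by -0.73, 0.71 and -0.59 after quantile normalisation, all called. The comparison of N18 with AtT20 thus gives no direction for Cfb that holds over the scalings, and the C3 call was not kept on one of them. The comparisons with AtT20 share its 4 arrays and are not independent of each other.

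The 43 other complement genes on the arrays show what surrounds these 9 genes. Of these, 22 were detected in BV2, 16 in N18 and 11 in AtT20, beside 53.3%, 55.4% and 35.0% of all features, so that none of these counts was above the share over all features, and 19 were detected in none of the lines. The undetected genes included partners of the classical and lectin pathways (C2, C4a, Masp1, Mbl1 and Colec10), C5 itself (Hc), C8a and C8b, the fluid-phase regulators Cfi, C4bp and Vtn, the membrane regulators Cd46, Cd55, Cd55b, Cd59b and Csmd1, and the receptors Cr2 and Vsig4. BV2 thus carried mRNA above threshold for C3ar1 and for C5ar1 while Hc, the source of C5a, was at 0.12 ± 0.08 there.

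Between BV2 and N18, 23 of these genes could be compared. After quantile normalisation 11 were called higher in BV2, 4 were called higher in N18 and 8 were not called. Of all features detected in at least 1 of these lines, 28.5% were higher in BV2 and 27.9% higher in N18. The median difference of the 23 genes on this scaling was 0.41, against 0.03 over all features compared. Without normalisation 7 of them were called higher in BV2. The 11 include Cfd, Fcnb, Cr1l and C1qbp, for which no direction is given below. Itgb2 and Itgam, the chains of complement receptor 3, were higher by 4.28 ± 0.10 (adjusted p = 1.27e-14, limma) and 3.74 ± 0.12 (adjusted p = 3.65e-13, limma), and Itgax, which pairs with Itgb2 in complement receptor 4, by 0.78 ± 0.10 (adjusted p = 8.53e-06, limma). Cfp, the gene of properdin that stabilises the C3 convertase of the alternative pathway, was at 4.54, 3.97, 3.89 and 4.49 in BV2 and below threshold in N18 and AtT20, a difference from N18 of 4.02 ± 0.14 (adjusted p = 5.67e-13, limma) and at least 11.1-fold. Itgb2 was at least 15.3-fold higher in BV2.

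Among the proteases, C1ra, which activates C1s in the C1 complex, was at 2.33 ± 0.18 in BV2 and 1.88 ± 0.13 in N18 and was higher in BV2 by 0.92 ± 0.14 (adjusted p = 3.59e-05, limma), though not without normalisation (0.49, adjusted p = 0.0631). C1s1 went the other way, at 1.24 ± 0.19 in BV2 and 2.39 ± 0.14 in N18 (-0.47 ± 0.13, adjusted p = 0.00912, limma), with the caution that C1s1 and C1s2 are near-identical copies. Both lines held mRNA for these proteases above the threshold while no C1q chain was detected by the same rule. Cfd, the protease that cleaves factor B, was detected in all 3 lines at 1.14 to 1.22. It was called higher in BV2 by 0.41 ± 0.15 (adjusted p = 0.0359, limma). The call was lost without normalisation (0.11, adjusted p = 0.745) and relative to the seminal vesicle proteins (0.08, adjusted p = 0.749). It was also lost without any 1 of BV2 plates 1 to 3 or of the 4 N18 plates (adjusted p of 0.0515 to 0.121), so no direction is given for Cfd. Only 1 of the 3 Cfd probes was above the threshold in AtT20 and in N18, and 2 were in BV2. The highest Cfd probe read 2.09 in AtT20, 2.07 in BV2 and 1.93 in N18, and the lowest -0.02, 0.07 and 0.35. The ficolins Fcna and Fcnb and the regulator Susd4 were called higher in BV2 by 0.50, 0.38 and 0.75. The Fcnb call was lost without normalisation (0.06, adjusted p = 0.848) and relative to the seminal vesicle proteins (0.03, adjusted p = 0.822). It was also lost without BV2 plate 2 or 3 or N18 plate 3, so no direction is given for Fcnb. Fcna lay just over the threshold in BV2 (0.60 against 0.56). There, 3 of the 4 plates were above their own threshold and 1 of its 3 probes was above that of the line. For Cr1l and C1qbp the differences of 0.57 and 0.60 fell to -0.01 and -0.04 without normalisation and to -0.04 and -0.07 relative to the seminal vesicle proteins, so that no direction is given.

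Of the 4 genes higher in N18, 3 were regulators and the other was C1s1. Serping1, the C1 inhibitor, read 3.36, 3.71, 3.54 and 3.69 in N18 against 0.84 ± 0.10 in BV2, a difference of -2.00 ± 0.16 (adjusted p = 2.45e-08, limma). Clu, which keeps the terminal complex off membranes, was at 4.31 ± 0.11 in N18 and 2.01 ± 0.31 in BV2 (-1.73 ± 0.12, adjusted p = 5.47e-09, limma). Cd59a, which blocks the membrane attack complex, was at 1.52 ± 0.16 in N18 and below threshold in BV2 (-0.58 ± 0.15, adjusted p = 0.00478, limma). C1s2, C6, C9, Masp2, Mbl2, Cpn1, Cpn2 and Cd93 were detected in at least 1 of the 2 lines and were not called. Each was called under some other setting, as Cpn1 was higher in BV2 without normalisation (0.48, adjusted p = 0.0359) and relative to the seminal vesicle proteins (0.45, adjusted p = 0.00778), and C1s2 was higher in N18 under these (-0.54, adjusted p = 0.0182, and -0.57, adjusted p = 0.00036). C8g was detected in AtT20 alone of the 3 lines (0.56 ± 0.08 there and 0.45 ± 0.11 in BV2), where the thresholds of AtT20 and BV2 were 0.37 and 0.56. In each of these lines 1 of its 3 probes was above the threshold. Against AtT20 the counts of these genes turned with the scaling, from 10 higher in BV2 and 8 higher in AtT20 of 24 compared after quantile normalisation to 17 and 0 relative to the seminal vesicle proteins. After quantile normalisation 39.9% of all features compared were higher in BV2 and 41.3% higher in AtT20. Over all features the share of calls higher in BV2 turned in the same way between these scalings, from 36.2% to 74.2%.

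**Figure D4:**
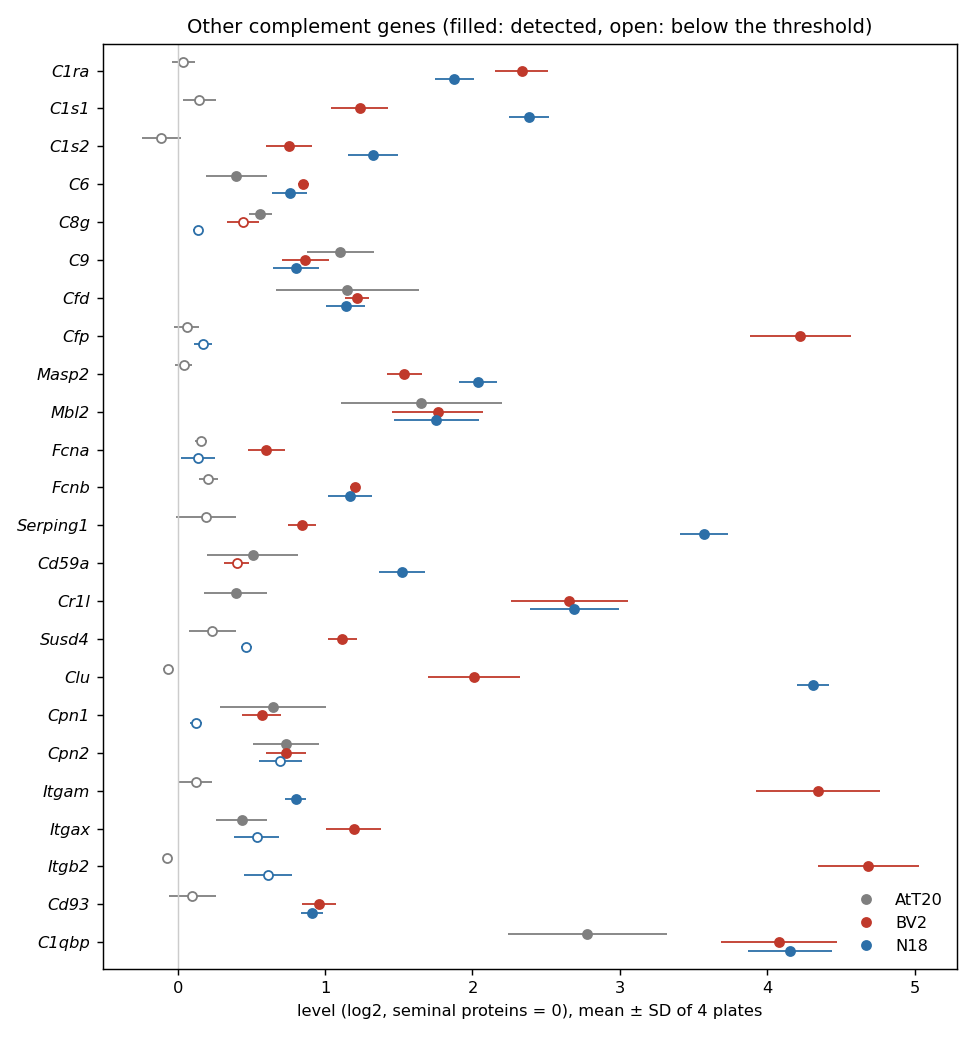
Mean level (SD of 4 plates as error bars) in each line of the 24 other complement genes detected in at least 1 line, in log2 units relative to the 10 seminal vesicle proteins; filled points are detected and open points lie below the threshold of the line. Itgb2, Itgam and Cfp stand far above the other lines in BV2, and Serping1 and Clu are highest in N18.

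The genes whose pattern over the 12 arrays was most like that of a complement gene were taken by Pearson correlation of quantile-normalised values among 12167 detected genes, as a description in which the arrays of a line share their source. For C3 they were Nos2 (0.994), Ccl4 (0.994) and Gcnt1 (0.993). For C3ar1 they were Rtp4 (0.996), Usp18 (0.996) and Aqp9 (0.994), and for C5ar1 they were Slpi (0.997), Slc15a3 (0.996) and Itgb7 (0.995). The values were lower for Cfb, where Upp1, Bsnd and Olfr149 reached 0.950, 0.945 and 0.931, and for C5ar2, where Cryzl2, Tcl1b3 and Gbp6 reached 0.944, 0.903 and 0.896.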

How the data were processed

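The authors extracted total RNA, labelled cDNA with Cy3 and hybridised it to NimbleGen mouse arrays. The deposited values are log2 probe intensities, and no normalisation between arrays is visible in them. The 72000 probes name 25631 transcripts, of which 17780 (69.4%) matched a RefSeq symbol, giving 25128 features with unmatched targets kept. The human line of the study and its qPCR were not analysed here.

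Gene values are log2 of the linear mean of the probes. Detection followed the study's rule (2 SD over 10 seminal vesicle proteins). After quantile normalisation a fit over all 12 arrays gave the differences between lines (limma 3.58.1, eBayes with a trend, under R 4.3.3), called at an adjusted p under 0.05, and the steps were tested on simulated data. Named were all 9 genes, the detected genes of a list of 48 other complement genes (43 measured), the 3 genes most alike and marker genes. One gene of that list is not reported here by name. These members and lists were chosen with earlier results of these data known. Whether plates shared a slide is not given in the sources used here. The number of arrays limits the precision. Alternatives covered scaling, probe summary, controls, threshold, samples and a replicate block.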

Additional observations from a re-analysis of the deposited data

Results flagged for a closer look

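Among the 27 sets of 4 plates (9 genes in 3 lines), a single plate stood apart from the other 3 in 2 sets, where chance gives about 1 in 20. C4b in N18 read -0.00231 in plate 1 and -0.103 to -0.092 in the other plates. C3ar1 in AtT20 read -0.0222 in plate 1 and -0.224 to -0.192 in the others. In both sets all 4 plates were below the threshold for detection.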

How the results depend on the processing

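C3, C3ar1 and C5ar1 stayed detected in BV2 and called higher in BV2 than in N18 and AtT20 under all alternatives tried, with differences from N18 of 2.97 to 4.34, 2.52 to 3.60 and 1.78 to 3.25 without leaving out a plate. Of the 9 genes, 3 were detected in BV2 with olfactory receptor controls, 3 SD or each plate above its threshold, against 5. In N18 none was detected (0) with those settings, with the mean of log2 probes or with quantile normalisation, and 3 were without the highest control. In AtT20 none was (0) with the median of probes. Other complement genes detected fell in AtT20 from 11 to 3 (median), 5 (olfactory receptors), 7 (3 SD) and 6 (each plate), and to 9 in BV2 and 9 in N18 with olfactory receptors.

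For BV2 against N18, other complement genes higher in BV2 numbered 7 without normalisation, 17 with only the 8 arrays of the pair and 3 with a difference of at least 1 as well, where 2 were higher in N18. All features called were 15554 with the 8 arrays and 2471 with that minimum, against 10270. Reversed differences without normalisation and relative to the seminal proteins were -0.0575 and -0.0873 for Cfb, -0.00634 and -0.0362 for Cr1l and -0.0433 and -0.0731 for C1qbp. Cpn2 reversed to -0.00805 with the median, and Masp2 to 0.0271 with normexp background correction and 0.0337 with 8 arrays, and it ranged from -0.0454 to 0.0336 when single plates were left out. The call of Cfb was gained with the 8 arrays (adjusted p = 0.028).

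For BV2 against AtT20, 2 of the 5 genes compared were higher in AtT20 without normalisation. Relative to the seminal proteins, 5 were higher in BV2. When single plates were left out, 0 to 1 were higher in AtT20 (1 without AtT20 plate 1, Cfb with -0.26). Other complement genes numbered 6 higher in BV2 and 14 in AtT20 without normalisation, 17 and 0 relative to the seminal proteins, 4 higher in AtT20 with the median, and 6 and 4 with a difference of at least 1, where 7102 features were called against 18495. C5ar2 reversed to -0.75 without normalisation, and Cfb to 0.52 relative to the seminal proteins and 0.22 with the median. For N18 against AtT20, 1 of the 2 genes compared was higher in N18 and 0 in AtT20 relative to the seminal proteins. Higher in AtT20 were 1 (mean of log2 probes), 0 (median) and 1 (difference of at least 1). Other complement genes were 13 and 2 relative to the seminal proteins and 2 higher in N18 with the minimum, where 7883 features were called against 19192. Cfb reversed to 0.60 and, with the median, to 0.21. Among features detected in at least 1 line, 47.3% of calls were higher in BV2 than AtT20 and 48.5% higher in N18 than AtT20. The causes were not tested.

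Deviations of plates with the same number correlated at -0.11 to 0.32 between lines. These values cannot show whether such plates shared a slide or another factor, and the main fit treated the plates as unpaired. With the replicate number as a block the C5ar2 difference between BV2 and N18 was 0.33 with adjusted p = 0.0606, and no other call of the 9 genes changed. The calls of Cfb, C5ar2, C1qa and C1qb near the threshold changed with the controls or settings above. A gene below the threshold is not shown to be absent.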
